A study of Mus musculus with 6 samples.

Results

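Plasmin dissolves fibrin and cleaves many proteins of the extracellular matrix, and it arises from plasminogen when a plasminogen activator cuts it. The 5 genes described here encode the activators Plau (urokinase) and Plat (tissue plasminogen activator), the urokinase receptor Plaur, and the serpins Serpine2 (protease nexin 1) and Serpinb2 (plasminogen activator inhibitor 2). Serpins trap their target protease in a covalent complex, and such complexes are taken up by endocytic receptors such as Lrp1. The members were chosen by gene name from the deposited count table, so that 5 of its 43346 genes are described. All 5 passed the filter on low counts.

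RNA-seq was made from limb bone of C57BL/6 mouse pups aged 1 day, with 3 libraries labelled WT and 3 labelled Hdac3 CKO. Hindlimbs and forearms were collected, and the bones were cleared of surrounding soft tissue. The series names Prx1 for the conditional knockout of Hdac3, a histone deacetylase. The Prx1 enhancer is widely used to drive Cre in limb mesenchyme, which forms bone, cartilage and tendon, whereas blood cells and osteoclasts come from another lineage. The labels give no further allele for either genotype, and do not say whether wild type pups carried Cre, whether animals or limbs were pooled, or whether libraries came from separate animals. The p-values set the genotype difference only against the spread of these libraries, part of which may be technical.

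In Hdac3 CKO bone the serpin Serpinb2 rose 7.52-fold from a low level, and it was the 1 member of 5 that passed the test. Across all 20210 genes tested, 0.703% rose and 0.475% fell by edgeR's test with Benjamini-Hochberg adjustment at 0.05, or 1.18% in either direction. Plat averaged 1.63-fold higher, with genotypes that did not overlap, and narrowly missed the threshold. Plau, Plaur and Serpine2 averaged 1.26-fold, 1.32-fold and 1.34-fold higher and did not pass. Among other genes of the plasminogen system, the endocytic receptors Lrp1 and Mrc2 and the matrix gene Fn1 rose. Cd177, a neutrophil surface gene listed only for its Ly6 domains, fell together with neutrophil markers.

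Libraries held 43389262 to 50927978 counts in genes. Replicate numbers run within each genotype and do not pair libraries across genotypes. Values are given as CPM, read counts scaled to library size with TMM factors. Hdac3 had 47.4 to 50.3 CPM in wild type against 28.3 to 31.8 CPM in Hdac3 CKO (edgeR adjusted p = 0.027). Osteoblast markers summed to 26500 to 36400 CPM in wild type and 41900 to 60800 CPM in Hdac3 CKO. Most of this sum was Col1a1 (23500 to 31100 against 36000 to 55700 CPM). None of the 8 osteoblast markers passed in edgeR, and 3 had an unadjusted p under 0.05, as did 15% of all genes tested. Bglap, Runx2 and Phex had negative log2 fold changes (-0.23, -0.44 and -0.31). Skeletal muscle markers summed to 43400 CPM in Hdac3 CKO replicate 1 and to 26500 to 31200 CPM in the other 5 libraries. Muscle RNA was thus abundant in every library, although the bones had been cleared of soft tissue. Chondrocyte markers summed to 8240 CPM in wild type replicate 3 and 15800 CPM in Hdac3 CKO replicate 3, against 1860 to 2500 CPM in the other 4 libraries. Fits without these cartilage-rich libraries are given where they bear on a result. In whole bone, fewer cells of a type and less RNA per cell cannot be told apart.

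Plau encodes urokinase, the activator that acts mainly at cell surfaces. The gene lies on chromosome 14 (20836662 to 20843388, plus strand, mm10). Wild type libraries had 16.5, 16.9 and 18.2 CPM, and Hdac3 CKO libraries 25.9, 19.5 and 19.9 CPM. All Hdac3 CKO libraries lay above all wild type libraries in TMM-scaled CPM, 2 of them narrowly and replicate 1 by a wider margin. The genotypes overlapped on the deposited RPKM scale (reads per kilobase, scaled to a library total). There wild type had 5.3, 6.47 and 6.51, and Hdac3 CKO had 8.45, 6.32 and 6.33. The log2 fold change was 0.34 ± 0.15 (SE), with a 95% interval of -0.00683 to 0.681 and an edgeR adjusted p of 0.341. Without Hdac3 CKO replicate 1 it was 0.18.

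Plat encodes tissue plasminogen activator, best known for dissolving clots when bound to fibrin. It lies on chromosome 8 (22757744 to 22782847, plus strand). Its level was 21.7, 24.6 and 21.1 CPM in wild type, compared with 43.9, 34.2 and 32 CPM in Hdac3 CKO. The genotypes did not overlap, and as for Plau the highest value was that of Hdac3 CKO replicate 1. That library had the highest sums of muscle, osteoblast, endothelial and macrophage markers (43400, 60800, 782 and 593 CPM). It also had the lowest TMM factor (0.88). The part of these traits in the Plau and Plat values was not tested. Without that library the log2 fold change of Plat was 0.55 and its edgeR adjusted p 0.0843. Without both cartilage-rich libraries they were 0.75 and 0.28. The means were 22.5 ± 1.88 and 36.7 ± 6.31 CPM (SD, n = 3 each), a log2 difference of 0.71 ± 0.15 (SE) with a 95% interval of 0.362 to 1.05. The adjusted p was 0.0668 by edgeR, 0.0827 by limma-voom and 0.00456 by DESeq2, so only DESeq2 of these 3 passed it. Exact permutation of the libraries, two-sided, returned p = 0.1, which is the lower limit for this design.

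The Plau to Plat ratio was computed within each library, since scaling factors cancel in it. On the log2 scale it was -0.40, -0.54 and -0.21 in wild type and -0.76, -0.81 and -0.69 in Hdac3 CKO. It was lower in all 3 Hdac3 CKO libraries, with means of -0.38 ± 0.17 and -0.75 ± 0.06 (SD, n = 3 each) and a difference of -0.37. The exact two-sided permutation p was 0.1, the smallest possible, and 0.2 when adjusted over the 2 ratios tested. With 3 libraries per genotype this test cannot go below 0.1, so it cannot decide whether the ratio differed. Per length, on the deposited RPKM scale, Plau averaged 0.828 of Plat in wild type and 0.64 of it in Hdac3 CKO. Both values depend on the gene length used for Plat, which is given below.

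Plaur encodes the lipid-anchored receptor that holds urokinase on the cell surface. It lies on chromosome 7 (24462500 to 24475873, plus strand). Wild type values were 13, 8.96 and 16.7 CPM, and Hdac3 CKO values were 15.8, 24.5 and 10.9 CPM. The genotypes overlapped, with the highest value in Hdac3 CKO replicate 2 and with Hdac3 CKO replicate 3 below 2 of the wild type libraries. The coefficient of variation of Plaur was 30.2% in wild type and 40.3% in Hdac3 CKO, where that of Plau was 5.3% and 16.5%. The log2 fold change of 0.40 ± 0.31 (SE) had a 95% interval of -0.284 to 1.09 and an edgeR adjusted p of 0.555. Leaving out Hdac3 CKO replicate 2 brought it to 0.06, leaving out wild type replicate 2 to 0.20, and leaving out both cartilage-rich libraries to 0.88.

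Serpine2 encodes protease nexin 1, which inhibits thrombin, urokinase and tissue plasminogen activator. It lies on chromosome 1 (79794197 to 79861180, minus strand). Libraries of wild type held 232, 263 and 377 CPM, and those of Hdac3 CKO 412, 427 and 329 CPM. The genotypes overlapped because the cartilage-rich wild type replicate 3 lay above the cartilage-rich Hdac3 CKO replicate 3. The log2 fold change was 0.42 ± 0.19 (SE), with a 95% interval of -0.0148 to 0.857 and an edgeR adjusted p of 0.346. Without both of those libraries it was 0.76, with an adjusted p of 0.248, and did not pass either.

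The sum of osteoclast markers, mostly Ctsk and Acp5, put the 6 libraries in the same order as Serpine2 did. It was 838, 905 and 1470 CPM in wild type and 1690, 1820 and 1360 CPM in Hdac3 CKO, and the part of these markers in the Serpine2 values was not tested. The log2 ratio of Serpine2 to Plau averaged 4.05 ± 0.29 in wild type and 4.17 ± 0.25 in Hdac3 CKO (SD, n = 3 each). The difference of 0.12 had an exact two-sided permutation p of 0.5, likewise 0.5 when adjusted, and it was -0.03 without Hdac3 CKO replicate 2.

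Serpinb2 encodes plasminogen activator inhibitor 2, a serpin that largely stays inside the cell and is known to be induced by inflammatory signals. It lies on chromosome 1 (107511423 to 107535478, plus strand). It had 21, 19 and 10 counts in wild type and 107, 143 and 61 counts in Hdac3 CKO, which is 0.395, 0.368 and 0.203 CPM against 2.59, 3.36 and 1.42 CPM. Every Hdac3 CKO library lay far above every wild type library, and in both genotypes the cartilage-rich replicate 3 was the lowest. The means were 0.322 ± 0.104 and 2.46 ± 0.978 CPM (SD, n = 3 each). The log2 fold change of 2.91 ± 0.42 (SE) had a 95% interval of 1.98 to 3.84 and an edgeR adjusted p of 0.0173. It ranked 12 from the top by log2 fold change among the 20210 genes tested.

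The call of Serpinb2 depended on having all wild type libraries. Its edgeR adjusted p was 0.0618, 0.0634 and 0.053 when wild type replicate 1, 2 or 3 was left out in turn. It was 0.0263 to 0.0348 when an Hdac3 CKO library was left out. Calls over all genes also fell, from 238 to 23, 35 and 105 without wild type replicate 1, 2 or 3. They fell to 175, 162 and 46 without Hdac3 CKO replicate 1, 2 or 3. The Serpinb2 log2 fold change stayed between 2.62 and 3.19 in these 6 fits. Without both cartilage-rich libraries this fold change was 2.95, with an edgeR adjusted p of 0.0936. With all 6 libraries and the mean of the chondrocyte markers as a covariate, it was 2.85, with an edgeR adjusted p of 0.00794. In TMM-scaled CPM, genotypes did not overlap, with Hdac3 CKO higher, for Plau, Plat and Serpinb2, or 3 of 5 members. The same held for 11.5% of all genes tested, and Plau overlapped on the deposited RPKM scale. Summed macrophage markers were also higher in each Hdac3 CKO library (528 to 593 CPM against 307 to 319 CPM), and their part in the Serpinb2 and Plat values was not tested.

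**Figure D1:**
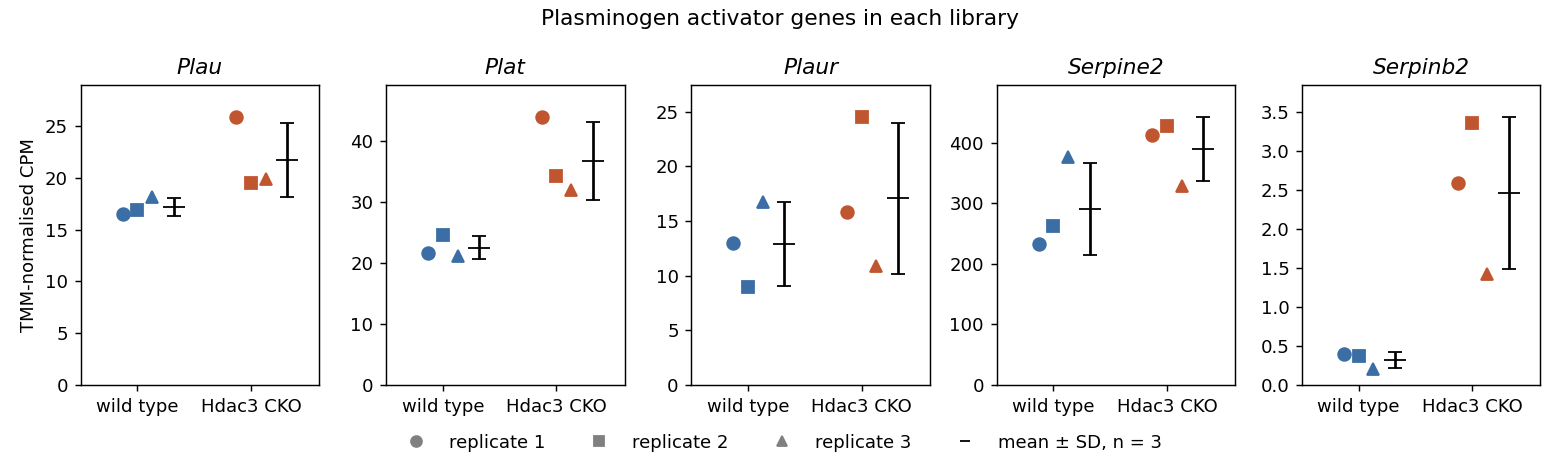
TMM-normalised CPM (vertical axis, from 0, with a separate scale for each gene) of the 5 genes in 3 wild type libraries (blue) and 3 Hdac3 CKO libraries (orange), with symbols for the replicate and black bars for mean ± SD. Plau, Plat and Serpinb2 have no overlap between genotypes, whereas Plaur and Serpine2 overlap.

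Upstream sequence is printed for Serpinb2, the member that passed, and for Plaur, which varied between libraries and did not pass. RefSeq windows (GRCm38.p6, the assembly of mm10) were matched by symbol for Serpinb2, Plaur and Serpine2, which is 3 of 5 members. The 250 bases before a transcript start are given 5′ to 3′ on the gene's strand, from chr1:107511173-107511422 (plus) for Serpinb2 and chr7:24462233-24462482 (plus) for Plaur. Capitals mark matches on either strand to TGANTCA (a loose form of the AP-1 motif, with any base at N), TGACGTCA (the CRE motif), TATAAA (the TATA box) or GGGCGG (the GC box).
Serpinb2: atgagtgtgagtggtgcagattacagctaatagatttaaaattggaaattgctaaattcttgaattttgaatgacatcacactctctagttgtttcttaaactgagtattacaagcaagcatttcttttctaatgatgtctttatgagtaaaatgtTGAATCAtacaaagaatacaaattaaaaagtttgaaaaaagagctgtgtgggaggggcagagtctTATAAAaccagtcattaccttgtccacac
Plaur: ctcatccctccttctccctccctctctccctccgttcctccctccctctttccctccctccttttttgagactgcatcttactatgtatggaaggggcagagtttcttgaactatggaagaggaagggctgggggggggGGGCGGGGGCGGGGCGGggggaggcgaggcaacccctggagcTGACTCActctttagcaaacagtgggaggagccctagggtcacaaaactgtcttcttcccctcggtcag
The Serpinb2 window held 1 AP-1 match (TGAATCA), beginning 94 bases before the start, and 1 TATA match, beginning 29 bases before it. A further RefSeq start of Serpinb2 lies downstream, and its window holds the same matches. In the Plaur window stood 1 AP-1 match (TGACTCA), beginning 69 bases before the start, and a run of 3 adjoining or overlapping GC box matches. The Serpine2 window (chr1:79858666-79858915, minus) held 6 GC box matches and no AP-1 or TATA match. It lies inside the gene span given above, not upstream of its outer end. The CRE letters were in none of these windows. Of 32536 windows of this length in the RefSeq table, 6.73% held TGANTCA, 1.56% TGACGTCA, 12.3% TATAAA and 33.0% GGGCGG. G and C made up 32.4% of the Serpinb2 window, 59.6% of that of Plaur and 78.8% of that of Serpine2. The matches describe letters only, and binding was not measured.

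Levels of different genes were compared per length, on the RPKM scale deposited by the authors (reads per kilobase, scaled to a library total). In wild type the means were 29.2 ± 8.51 for Serpine2, 7.6 ± 2.21 for Plaur, 7.39 ± 1.18 for Plat, 6.09 ± 0.689 for Plau and 0.113 ± 0.036 for Serpinb2 (SD, n = 3). In Hdac3 CKO they were 35.6 ± 5.25 for Serpine2, 11 ± 2.01 for Plat, 9.27 ± 3.8 for Plaur, 7.03 ± 1.23 for Plau and 0.794 ± 0.322 for Serpinb2. Serpine2 was the highest and Serpinb2 the lowest of the 5 in each of the 6 libraries, and Plat was above Plau in each. The place of Plaur was not resolved, since its mean differed from those of Plat and Plau by less than its own SD in both genotypes. Lengths are those of the deposited table, which for Plat is 2531 bases where merged GENCODE M21 exons cover 6241. For Plaur they are 1396 against 2617 and for Plau 2343 against 2367, while for Serpine2 and Serpinb2 both are equal. These levels, and the order of Plat, Plaur and Plau, therefore depend on the gene model.

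**Figure D2:**
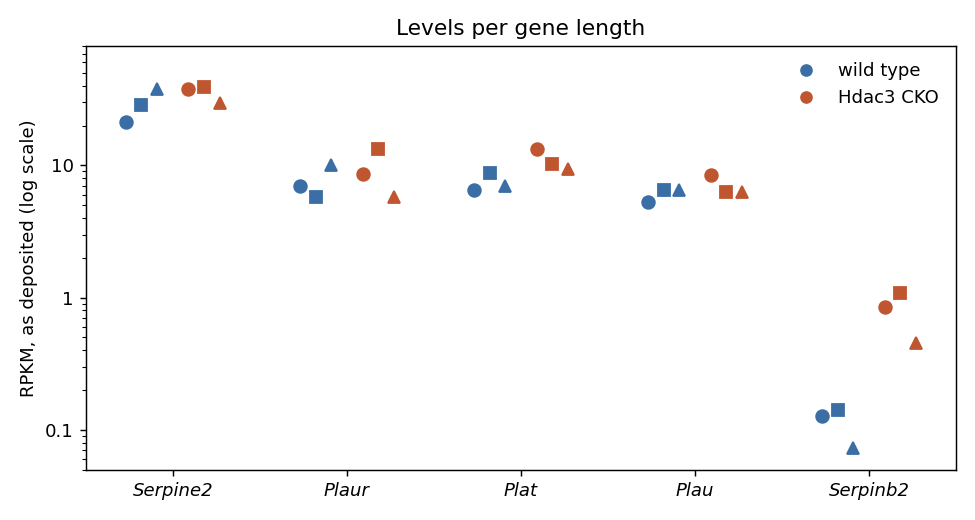
Deposited RPKM (vertical axis, log scale) of the 5 genes in each library, wild type in blue and Hdac3 CKO in orange, with circle, square and triangle for replicates 1, 2 and 3. Serpine2 is highest and Serpinb2 lowest in all 6 libraries, and Plaur, Plat and Plau lie between 5.3 and 13.3.

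Serpinb2 sits in a row of clade B serpin genes on chromosome 1, in which the 2 other tested genes did not pass. Within 500000 bases on either side, Serpinb3a, Serpinb3b, Serpinb3c, Serpinb3d, Serpinb7 and Serpinb11 had 0 to 10 counts each over all 6 libraries together and were not tested. Serpinb8 had 302 to 406 counts in wild type and 263 to 376 in Hdac3 CKO, a log2 fold change of 0.08 ± 0.19 (SE). Serpinb10, known from blood-forming cells, had 67, 23 and 44 counts in wild type and 0, 18 and 5 in Hdac3 CKO. All Hdac3 CKO values of Serpinb10 were the lower ones, with a log2 fold change of -2.25 ± 0.71 (SE) and an edgeR adjusted p of 0.186. Neutrophil markers were lower in the same libraries (18.2 to 28.1 against 88.8 to 271 CPM), and their part in the Serpinb10 values was not tested. In GENCODE M21, Serpinb10 is classed as a polymorphic pseudogene and shares 291 exon bases with Serpinb2 on the same strand, or 12.4% of the merged exons of Serpinb2. How reads in that stretch were counted is unknown here and the reads in it were not counted separately, so the split of counts between Serpinb2 and Serpinb10 is uncertain. The other 4 members share no exon bases with another gene.

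**Figure D3:**
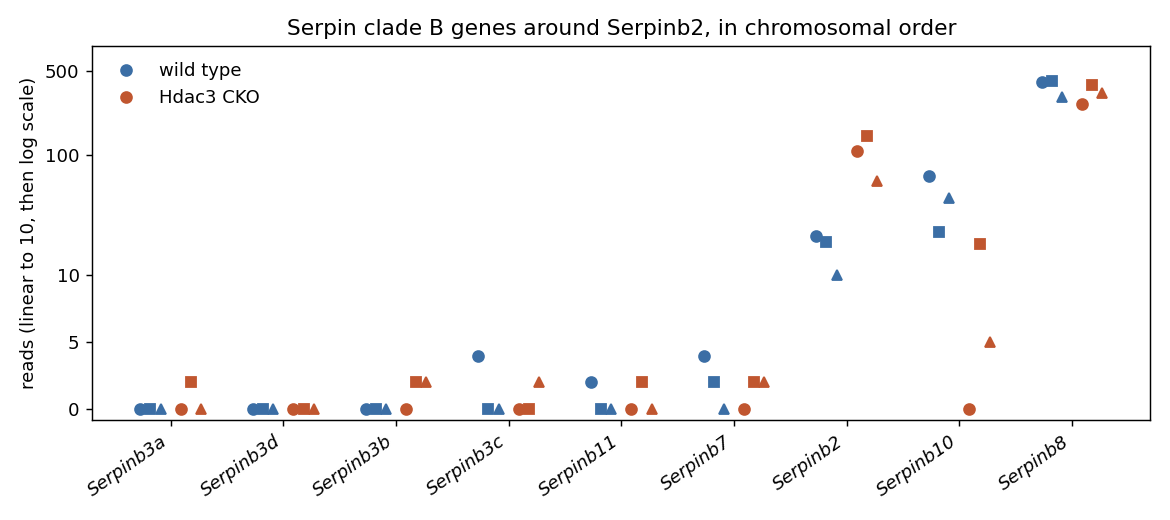
Reads per library (vertical axis, linear up to 10 and logarithmic above) of clade B serpin genes within 500000 bases of Serpinb2, in chromosomal order, wild type in blue and Hdac3 CKO in orange, with circle, square and triangle for replicates 1, 2 and 3. Serpinb2 is higher and Serpinb10 lower in each Hdac3 CKO library, Serpinb8 overlaps, and the other 6 genes have at most 4 reads in any library.

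The wider plasminogen system, and genes related to members by family or domain only, were followed through 7 lists with 80 distinct genes, of which 58 passed the filter on low counts. Of these, 3 rose, 1 fell and 54 did not pass. Their median log2 fold change was 0.15, where that of all genes tested was 0, and 34 of 58 stood above 0, against 50.1% of all genes. Genotypes did not overlap for 21 of the 58 and for 22.5% of all genes tested. Plg, the gene of plasminogen itself, is made mainly in the liver and had 30 counts in all 6 libraries together, too few to test. F12 and Klkb1, whose liver-made products belong to the contact system, had 18 and 8 counts.

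Of 8 tested endocytic and clearance receptors, 2 rose, 0 fell and 6 did not pass, with a median of 0.24. Lrp1, which takes up protease and serpin complexes, had 608, 464 and 482 CPM in wild type against 1080, 1040 and 1080 CPM in Hdac3 CKO. Its log2 fold change was 1.04 ± 0.15 (SE; edgeR adjusted p = 0.0179). Mrc2, a collagen receptor also called the urokinase receptor-associated protein, had 233, 221 and 258 CPM against 502, 450 and 441 CPM. Its log2 fold change was 0.97 ± 0.13 (SE; edgeR adjusted p = 0.0152). Both genes separated the genotypes by a wide margin.

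Among 13 tested substrates of plasmin or the activators, 1 rose, 0 fell and 12 did not pass, with a median of 0.22. The gene that rose was Fn1, which encodes fibronectin. It had 1360, 1310 and 1330 CPM in wild type against 2920, 2630 and 3210 CPM in Hdac3 CKO, a log2 fold change of 1.13 ± 0.15 (SE; edgeR adjusted p = 0.0146). Mmp3, a matrix metalloproteinase whose proenzyme plasmin can cleave, had 0.507, 0.485 and 0.163 CPM against 1.14, 1.1 and 1.23 CPM. Its genotypes did not overlap, and its edgeR adjusted p of 0.0966 did not pass. Mmp9 likewise did not overlap and did not pass in edgeR (adjusted p = 0.114). DESeq2 called both Mmp3 and Mmp9.

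Of 7 tested inhibitors other than the members, 0 passed in edgeR or DESeq2, 2 had an unadjusted p under 0.05, and the median was 0.30. Those 2 pointed in opposite directions. Serping1, the C1 inhibitor, stood at a log2 fold change of 0.43 ± 0.15 (SE; edgeR adjusted p = 0.222), and Serpini1, the tissue plasminogen activator inhibitor neuroserpin, at -0.73 ± 0.27 (SE; edgeR adjusted p = 0.249). Of 4 tested genes among 13 listed in the clade B cluster and clade E, 0 passed in edgeR or DESeq2 and 2 had an unadjusted p under 0.05, with a median of -0.65. These were Serpinb10 and Serpine3, the latter at -1.37 ± 0.54 from a wild type mean of 0.451 CPM. The share with an unadjusted p under 0.05 was 15% over all genes tested.

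Of 13 tested plasminogen receptors and cofactors, 0 passed in edgeR or DESeq2 and 4 had an unadjusted p under 0.05, with a median of 0.26. Itga5, an integrin chain of the fibronectin receptor, stood at 0.45 ± 0.14, and Itgb2, an integrin chain of leukocytes, at 0.65 ± 0.22 (log2 fold change ± SE). Their edgeR adjusted p was 0.172 and 0.209. Of 5 tested proteases that can activate pro-urokinase or plasminogen, 0 passed in edgeR and 1 had an unadjusted p under 0.05, with a median of 0.15. That gene was Ctsb, encoding the lysosomal protease cathepsin B, at 0.48 ± 0.14 (edgeR adjusted p = 0.155), which DESeq2 called. Hpn, encoding hepsin, stood at 0.71 ± 0.33 (edgeR adjusted p = 0.345). Over all genes tested, 15% had an unadjusted p under 0.05.

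Of 10 tested genes with a Ly6 domain like that of the urokinase receptor, 0 rose, 1 fell and 9 did not pass, with a median of -0.08. The gene that fell was Cd177, a surface protein of neutrophils, with 1.67, 1.45 and 3.52 CPM in wild type against 0.315, 0.235 and 0.511 CPM in Hdac3 CKO. Its log2 fold change was -2.63 ± 0.47 (SE; edgeR adjusted p = 0.0328). Of 8 neutrophil markers, 5 fell with it, S100a8 and S100a9 among them, and their part in the Cd177 result was not tested. Ly6a, a surface protein of progenitor and endothelial cells, stood at -0.46 ± 0.18 (SE; edgeR adjusted p = 0.282).

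**Figure D4:**
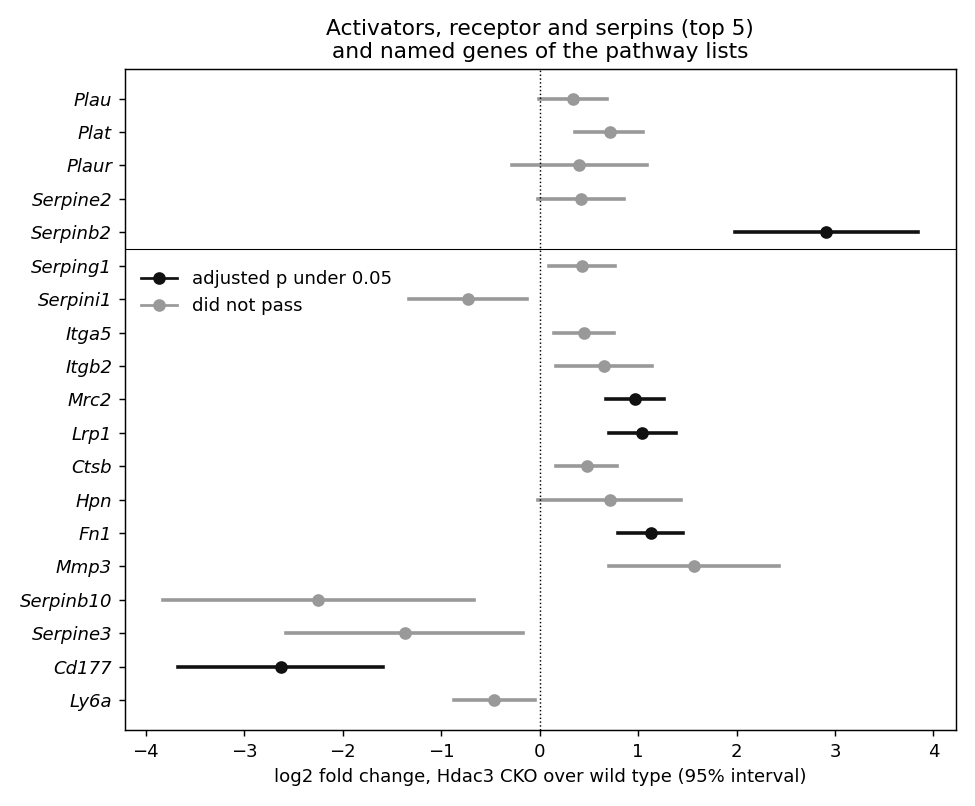
Log2 fold change of Hdac3 CKO over wild type (horizontal axis) with its 95% interval for the 5 members and the named genes of the pathway lists. Black marks an edgeR adjusted p under 0.05 and grey a gene that did not pass, with Serpinb2 at 2.91, Fn1, Lrp1 and Mrc2 at 1.13, 1.04 and 0.97, and Cd177 at -2.63.

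The calls of Lrp1, Mrc2, Fn1 and Cd177 also depended on single libraries. None of the 4 passed in edgeR without wild type replicate 1 or 2 (adjusted p 0.0517 to 0.095) or without Hdac3 CKO replicate 3 (0.0548 to 0.0845). Leaving out wild type replicate 3 kept the call of Mrc2 (0.0414) and lost the other 3 (0.0509 to 0.0656). Leaving out Hdac3 CKO replicate 1 or 2 lost Cd177 (0.0801 and 0.0742) and kept the others. Without both cartilage-rich libraries none of the 4 passed (edgeR adjusted p 0.133 to 0.211), in a fit that called 0 genes. With all 6 libraries and the mean of the chondrocyte markers as a covariate, all 4 passed (edgeR adjusted p 0.015 to 0.0302). The direction of all 4 was the same in each of these fits.

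The genes most like each member over the 6 libraries were found by the root mean square difference of centred log2 CPM, among 14692 genes. Plau itself spread by 0.214 about its mean, and its nearest genes were Psap (0.0218), Clptm1 (0.0226) and Wsb2 (0.0259). Plat spread by 0.38 and was nearest to Mest (0.0576), Sdf2l1 (0.059) and Wfikkn2 (0.0594). For Plaur, with a spread of 0.465, the nearest were Ube2ql1 (0.0981), Fam132b (0.132) and Arid5a (0.148). Each distance is in log2 units, and a smaller one means a closer pattern. Serpine2 spread by 0.327 and was nearest to Sema4d (0.0505), to Ctsk (0.0577), the gene of the osteoclast protease cathepsin K, and to Rufy4 (0.0629). Serpinb2 spread by 1.44, the most of the 5, and was nearest to Calm5 (0.258), Irs3 (0.608) and the Wnt antagonist Sfrp4 (0.609). Among the members, Plau and Plat were the nearest pair (0.211) and Plau and Serpinb2 the farthest (1.3). These values describe 6 libraries of 2 genotypes and carry no test.

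Marker lists of other cell types gave the following counts. Of 9 macrophage markers tested, 5 rose, namely C1qa, C1qb and C1qc (log2 fold changes of 1.25, 1.24 and 1.24), Emr1 (0.98) and Csf1r (0.85), and of 8 neutrophil markers 5 fell. In the erythroid list 2 of 7 fell, and in the list of tendon and connective tissue fibroblasts 2 of 7 fell. No gene passed in edgeR in the osteoclast, endothelial, mast cell, keratinocyte, skeletal muscle, chondrocyte, osteoblast and Schwann cell lists. In these lists, of 6 to 8 tested genes each, 5, 1, 0, 2, 0, 0, 3 and 1 genes had an unadjusted p under 0.05. The share was 15% over all genes tested. Endothelial markers summed to 525 to 650 CPM in wild type and 615 to 782 CPM in Hdac3 CKO, and keratinocyte markers to 10.3 to 25 and 18 to 42.7 CPM, so both ranges overlapped. No marker was at 0 in all libraries. The part of these cell types, and of the osteoblast markers given above, in the Lrp1, Mrc2 and Fn1 results was not tested.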

How the data were processed

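The 6 libraries were measured by RNA-seq of limb bone. Whole-number gene counts and separate RPKM values were deposited by the authors, per the file headers. The submitters' processing notes list mm10, featureCounts, Subread, TopHat2 2.1.0 and bcl2fastq 1.8.4. For the strand setting, the treatment of shared reads and the annotation, the sources used here give nothing. The library totals behind the deposited RPKM exceed the counts in genes, which make up 72.1% to 87.0% of them.

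edgeR 4.0.16 in R 4.3.3 was run on the counts with its own filter on low counts (20210 genes left, holding 99.9% of counts) and TMM scaling. The robust quasi-likelihood test compared genotypes with no covariate, and Benjamini-Hochberg adjustment covered all genes, with a threshold of 0.05. Ratios were tested by exact permutation. In simulated counts for this comparison (19763 genes), the test called 61% of the 2-fold and 96% of the 4-fold changes. Of its calls, 7.65% were false and 0 in the wrong direction. Changed genes were drawn only from those above a minimum mean CPM, and all libraries of a genotype were given the same means. The rates for genes of lower level, and for libraries of uneven tissue content, were not measured.

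Named genes were the members, Hdac3, the 2 genes with the smallest p and every gene that passed in each list, the 3 nearest genes per member (mean count of at least 10, autosomal, no predicted genes, prior count 2) and the first 2 markers of a list. The neighbours of Serpinb2, Plg, F12, Klkb1, Mmp9, the C1q genes, Runx2 and Phex were chosen after their values were seen. The members and lists were chosen with earlier results of these data known. Some list genes are counted but not reported by name. Alternatives were other scalings and filters, DESeq2 1.42.0, limma 3.58.1 (voom, or log2 RPKM plus 1 or 0.1), a chondrocyte covariate and libraries left out.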

Additional observations from a re-analysis of the deposited data

How the results depend on the processing

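Leaving out 1 library gave 23 to 175 called genes, 0 to 1 called members, 0 to 3 called genes of the plasminogen lists, a Serpinb2 log2 fold change of 2.62 to 3.19 and a difference in the log2 ratio of Serpine2 to Plau of -0.03 (without Hdac3 CKO replicate 2) to 0.28. Without both cartilage-rich libraries, which leaves 4 samples, edgeR called 0 genes, 0 members and 0 list genes, and Serpinb2 stood at 2.95. In that fit 2309 of 20270 genes tested, 4 of 5 members and 13 list genes had an unadjusted p under 0.05. DESeq2 on all 6 libraries called 868 genes, 2 members (Plat at 0.71, and Serpinb2) and 7 list genes (Ctsb, Mmp3 and Mmp9 besides those of edgeR). There were 157 called genes by limma-voom, 158 with the chondrocyte covariate, and 131, with 2 list genes, by limma on log2(RPKM + 1). The causes of these changes were not tested. Scaling by library totals alone moved the median of all genes to -0.18 and the share of higher calls from 59.7% to 32.6% (36.6% and 36.9% on log2(RPKM + 1) and log2(RPKM + 0.1)), and the 5 members stayed above 0, at 0.14 for Plau, 0.51 for Plat, 0.23 for Plaur and Serpine2 and 2.73 for Serpinb2. The same share was 31.4% of 35 calls without wild type replicate 2 and 78.3% of 46 without Hdac3 CKO replicate 3. Serpinb2 stood at 0.67 on the log2(RPKM + 1) scale, which understates low genes. Its wild type libraries hold 10 to 21 counts, and it could pass the filter through Hdac3 CKO alone. No paired analysis was possible because the labels give no replicate numbers shared by the genotypes.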
